A study of Mus musculus with 3 samples.

Results

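Replication-dependent histone genes supply the bulk of the protein on which new DNA is wrapped. They were taken here as every gene whose symbol in the deposited gene list names a clustered H1, H2A, H2B, H3 or H4 gene (H1f1 to H1f5, or H2ac, H2bc, H3c or H4c followed by a number). This gave 64 of 55357 listed genes, of which 5 encode the linker histone H1, 18 encode H2A, 17 encode H2B, 12 encode H3 and 12 encode H4. Their levels were read in single-cell RNA libraries of mouse LLC1 tumours, a Lewis lung carcinoma line that was injected into the marrow cavity of the right tibia. The hosts were 8-week-old mice of 3 kinds: wild type, DMP1-Cre Mfn2-/- and DMP1-Cre Rhot1-/-. Tumours were taken after 14 days and live cells were sorted, so both LLC1 cells and infiltrating host cells were measured. Each library pooled tumours of 3 mice of 1 genotype, and cells cannot be assigned to single mice, so a genotype is 1 sample. Mfn2 encodes mitofusin 2, a mitochondrial fusion protein, and Rhot1 encodes Miro1, which tethers mitochondria to their transport motors. The Dmp1 promoter is known for driving Cre in osteocytes, so the injected LLC1 cells are not its target. The labels name no Cre for the wild-type mice, so effects of Cre and of the deletion cannot be told apart.

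Replication-dependent histone genes lie in dense clusters and are transcribed mainly while DNA is copied. Most of their messages carry no poly(A) tail. They end instead just after a short stem-loop, which is bound by the protein SLBP and is cut by a dedicated complex, and they are degraded when replication stops. Some of the genes can also end at a downstream poly(A) signal, a form that is known from resting and differentiated cells. The libraries here were made with a 3′ kit that primes on poly(A), so a value below is the amount of captured message and not the amount of histone mRNA in the cell.

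The stem-loop is the shared element of the family, and it is shown for 8 members to which the results return. A search on the sense strand after the stop codon, for GG, any 3 bases, TT, any base, T, any base, A, any 3 bases and CC with the first and last 6 bases pairing, found it in the GENCODE M21 gene models of 42 of the 64 members. The same search in the first 100 bases after the stop codon found it in 9 of 20199 other genes (0.0446%), among them the H2A variant gene H2afx. Capitals mark the 16 bases of the stem-loop, and lower case marks up to 5 bases on either side.
H2ac24: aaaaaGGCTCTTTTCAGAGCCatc
H1f4: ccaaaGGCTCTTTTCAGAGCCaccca
H1f2: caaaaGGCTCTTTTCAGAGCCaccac
H2bc11: ccaaaGGCTCTTTTCAGAGCCacgca
H3c3: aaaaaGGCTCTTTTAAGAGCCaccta
H2ac20: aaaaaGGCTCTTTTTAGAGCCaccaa
H4c4: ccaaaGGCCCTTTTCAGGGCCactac
H4c9: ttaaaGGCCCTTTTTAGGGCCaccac

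In mm10 these sites lie at chr13:21833026-21833049 (H2ac24, minus strand), chr13:23621777-23621802 (H1f4, minus), chr13:23739507-23739532 (H1f2, plus) and chr13:22043633-22043658 (H2bc11, plus). The others lie at chr13:23745042-23745067 (H3c3, minus), chr3:96220413-96220438 (H2ac20, minus), chr13:23581945-23581970 (H4c4, plus) and chr13:22040961-22040986 (H4c9, minus). Across the 42 members there were 8 distinct 16-base stem-loops, and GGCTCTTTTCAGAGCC was the most frequent, in 24 members. The stem-loop ends 3 bases from the end of the H2ac24 model but 840 bases before the end of the H1f2 model. The models of H1f1, H1f5 and H2bc4 contain no match. Those of H1f1 and H1f5 hold only 48 and 0 bases after the stop codon, so H1f5 could not match. A stem-loop beyond the end of either model would be missed. Of the 64 members, 54 lie on chromosome 13 and 10 on chromosome 3.

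Barcodes numbered 9393 for wild type, 10016 for Mfn2 and 9534 for Rhot1. Their totals were 112088653, 118123705 and 118223251 UMIs (unique molecular identifiers, each counting 1 captured RNA molecule). Between 20 and 35 barcodes were shared by each pair of libraries. After filters on depth and mitochondrial RNA and removal of 221 to 308 predicted doublets per library, 27739 cells were kept. Clusters were named from marker genes, and the members were left out of the clustering. Tumour-like clusters held 3836, 5330 and 5613 cells, and Hmga2 was among the 10 leading genes of each of them but cluster 4. No cluster was named osteocyte- or osteoblast-like. Levels are given as CPM, UMI counts scaled to a common total for each group of cells. Over all kept cells Mfn2 stood at 16.2, 20.3 and 20.7 CPM and Rhot1 at 23.1, 23.7 and 25.2. LLC1 cells are not the target of the Cre, and no osteocyte-like cluster was named. The labels also do not state which part of either gene was deleted, so a 3′ tag of these genes checks no label. Intervals in parentheses are exact 95% intervals that cover counting error only, and they are too narrow where a few cells hold most UMIs.

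A few genes supplied most of the histone message. The members had 528478 UMIs in kept cells, which came to 1681, 1441 and 1631 CPM for wild type, Mfn2 and Rhot1. The H2A gene H2ac24 alone gave 27.3% of them, the top 3 genes 52.4% and the top 10 genes 87.8%. No UMI was found for H3c14 and H2bc23, another 5 members had 1 to 10, and 53 had 100 or more. H2A genes together gave 42.5% of member UMIs, H1 genes 35.1%, H2B genes 10.0%, H4 genes 7.39% and H3 genes 4.999%, although core histones are needed in equal amounts in the nucleosome. What share of each family's message was captured was not tested.

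H2ac24 was the highest member in every library, at 482 (478 to 486), 423 (419 to 427) and 394 (390 to 398) CPM for wild type, Mfn2 and Rhot1. Next came the linker histone genes H1f5, with 231, 199.5 and 291 in the same order, and H1f4, with 151, 145 and 171. H2ac8 stood at 179.8, 127 and 146. H2ac24 and H1f5 thus held the first and second place in every library, while H2ac8 stood above H1f4 in the wild-type library only. H1f2, a linker histone gene, stood at 121, 114 and 103, and H2bc4, the highest H2B gene, at 119, 109 and 100.4. H4c4 was the highest H4 gene (93.1, 74.5 and 104), and H3c3 the highest H3 gene (26.2, 19.4 and 27.8). The lowest members of each family with any UMI were H1f1 for H1 (6578 UMIs in all), H2ac12 for H2A (1), H2bc1 for H2B (1), H3c10 for H3 (59) and H4c17 for H4 (13).

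**Figure D1:**
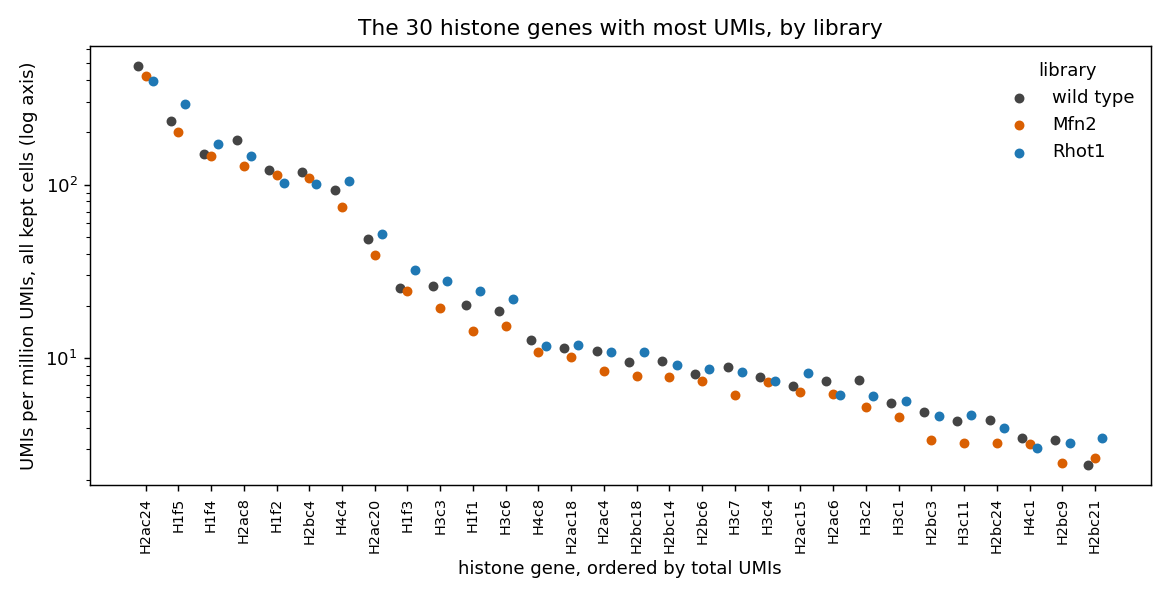
CPM over all kept cells (log axis) for the 30 members with most UMIs, ordered by their total. Each point is 1 library, and H2ac24 leads in all 3 with 482, 423 and 394 CPM.

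Near-identical copies limit which gene a UMI can be credited to. When the models were cut into 60-base windows, the median member shared 49.7% of its windows with another gene, and 8 members shared at least 90%. For H2ac24 the share was 92.9%, so its UMIs may belong in part to other H2A genes. H1f1 and H1f5 shared 0%, H4c4 6.95% and H1f2 7.59%. The models of H2bc6 and H1f4 overlap each other on the same strand, and 6 members overlap some gene on their own strand, so UMIs of these are uncertain. The treatment of reads that match several genes was not stated in any source at hand.

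Histone message was far higher in cells that scored for G2/M phase, alone or together with S phase. Each cell was scored for 39 S phase genes and 51 G2/M genes, none of them histones or histone chaperones, and was put in 1 of 4 states: neither score above 0, S score only (S-only), both scores, or G2/M score only (G2/M-only). Scores within 0.02 of 0 were found in 10.4%, 14.6% and 14.1% of tumour-like cells, so a state is a range and not a cell type. In tumour-like cells of the wild-type library the members summed to 566 CPM in cells with neither score, 434 in S-only cells, 3373 in cells with both and 1504 in G2/M-only cells. The Mfn2 library gave 537, 465, 2922 and 1076, and the Rhot1 library 544, 431, 2887 and 1235. Cells with both scores were thus the highest and S-only cells the lowest in each of the 3 libraries, and no state overlapped another across libraries. The ratio of both to neither was 5.95 (5.84 to 6.07), 5.44 (5.35 to 5.54) and 5.31 (5.21 to 5.41). Median depth moved with state, from 12120.5 UMIs per wild-type cell with neither score to 21132 with both. For a comparison at equal depth, cells were thinned to 3000 UMIs before scoring, which left out 172 of 3836, 420 of 5330 and 335 of 5613 shallower tumour-like cells. The ratios of both to neither were then 5.67, 5.01 and 4.82. The ratios of S-only to neither were 1.04, 1.02 and 0.951, so S-only cells were no longer the lowest in the wild-type and Mfn2 libraries.

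**Figure D2:**
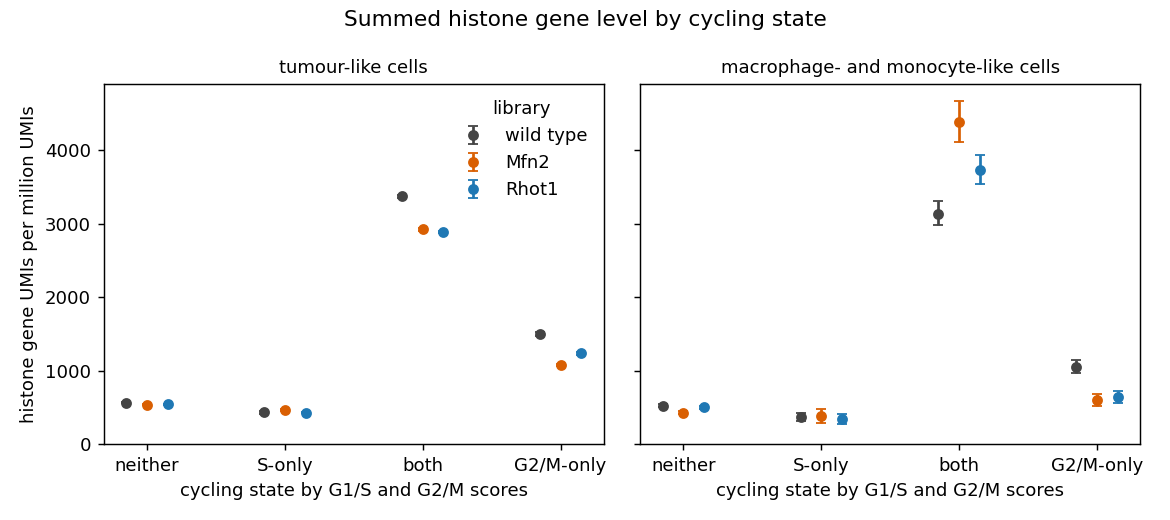
Summed member CPM of the cells in each cycling state, with exact 95% counting intervals, for tumour-like cells (left) and macrophage- and monocyte-like cells (right). Each colour is 1 library, and cells with both scores stand above the other states in both panels (2887 to 3373 in tumour-like cells).

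A rise also appeared without a threshold on the scores, although the upper S bins mix S-only cells with cells that have both scores. When tumour-like cells were cut into 10 bins by S score (labelled G1/S in the plots), the summed member level of the wild-type library went from 635 CPM in the lowest bin to 3763 in the highest. The Rhot1 library went from 660.5 to 2860.4, and the Mfn2 library reached 3023 in bin 9 and 2862 in bin 10. By G2/M score the level stayed low over the first 5 bins (479.9 to 624), although in the Mfn2 library it went from 486 in bin 1 to 624 in bin 5. It was highest in bin 8 in the wild-type (4085) and Rhot1 (3637) libraries and in bin 9 in the Mfn2 library (3378). In the last bin it was lower in each library (2904, 1784 and 2042). Cells with the highest G2/M scores thus carried less histone message than those just below them.

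**Figure D3:**
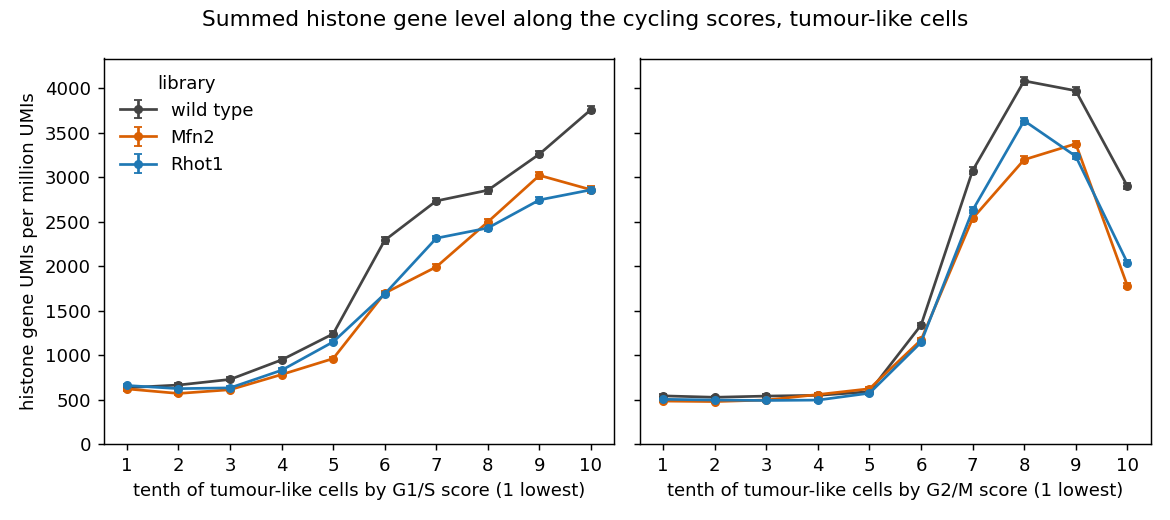
Summed member CPM in tumour-like cells cut into 10 bins by S score (left) and by G2/M score (right), with exact 95% counting intervals, 1 line per library. The level is highest in the upper S bins and is lower in the last G2/M bin than in bin 9 in all 3 libraries.

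Single cells of 1 state differed widely. In cells with both scores the median was 21.7, 22.2 and 19.8 member UMIs per 10000 UMIs of the cell for wild type, Mfn2 and Rhot1. The lowest 10% of these cells lay under 3.18, 2.82 and 3.02, below the medians of 4.80, 4.51 and 4.73 in cells with neither score, and the highest 10% lay above 75.3, 63.9 and 63.4. The 10% of tumour-like cells with most member UMIs held 52.2%, 50.1% and 47.8% of them. A high level was therefore a property of part of the cells with both scores.

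The genes behind this difference were tested one by one, with UMIs summed per library and state and edgeR's quasi-likelihood test with the library as a block. The contrast of both against neither was added after the state levels had been seen. Of the 64 members 50 passed the filter on low counts, some only through the state in which they are high. Of these 50, 44 rose in cells with both scores, 2 fell and 4 passed no threshold, at Benjamini-Hochberg adjusted p under 0.05 over all 15220 genes tested. Of all genes tested, 27% rose and 24.8% fell. The median log2 difference was 2.94 for the 50 members and -0.02 for all genes. Without the wild-type library 4 members fell. P-values here set the state difference against how much it varies between the 3 libraries, which are of different genotypes. That variation is estimated in part from all genes tested, and it may be technical in part.

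The linker histone genes held both extremes. H1f1 rose most of all members, from 1.36, 0.83 and 1.47 CPM in cells with neither score to 53.3, 38.4 and 53.4 in cells with both (wild type, Mfn2 and Rhot1). The libraries did not overlap between the states, and the log2 difference was 5.33 ± 0.09 (SE, adjusted p = 1.7e-08). H1f5 went from 17.0, 16.2 and 21.9 to 577, 505 and 608, a log2 difference of 4.95 ± 0.07. H1f3 and H1f4 rose by 3.07 ± 0.10 and 2.72 ± 0.05. H1f2 went the other way, from 152, 138 and 124 down to 91.6, 99.0 and 96.9, and fell by 0.51 ± 0.07 on the log2 scale (adjusted p = 0.00059). H1f2 and H1f5, both linker histone genes of the chromosome 13 clusters, thus stood in reverse order in cells with both scores and with neither in each library.

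All 12 H2A members that passed the filter rose. H2ac24 went from 58.2, 57.9 and 57.2 CPM to 1114, 989.8 and 771, a log2 difference of 4.05 ± 0.10 (adjusted p = 3.9e-08). H2ac8 rose by 3.67 ± 0.09, and H2ac20 of the chromosome 3 cluster by 3.56 ± 0.07. H2ac22 and H2ac10 were called at 4.64 ± 0.20 and 4.58 ± 0.24. They had only 13 and 11 UMIs with neither score against 564 and 458 with both, over the libraries together. Both genes passed the filter only through the latter state. H2ac6 rose least, by 0.46 ± 0.09, and lost its call with the stricter cell filter, as it did once the unnamed tumour-marker clusters were included.

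H2B members split. Of 13 that passed the filter 11 rose, with H2bc14 at 4.19 ± 0.11 and H2bc18 at 4.11 ± 0.12. H2bc15 was called at 4.16 ± 0.22, on 15 UMIs with neither score against 466 with both over the libraries together. H2bc4 fell more than any other member, from 153, 161 and 159 CPM to 67.2, 62.9 and 63.5, by 1.28 ± 0.06 on the log2 scale (adjusted p = 1.3e-06). H2bc21, with 2.31, 2.65 and 4.36 against 2.19, 2.47 and 2.99, did not pass the test. Because H2bc4 made up most of the H2B message, the summed H2B level had ratios of both to neither of 0.96, 0.81 and 0.87, while the H2A sum had 15.5, 14.1 and 11.7.

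H3 and H4 members mostly rose. H3c3 went from 1.76, 1.66 and 2.36 CPM to 61.4, 45.0 and 54.7, a log2 difference of 4.80 ± 0.10, and H3c2 rose by 4.61 ± 0.15. H3c4 rose by only 0.53 ± 0.09, and H3c15 (1.21, 2.17 and 1.64 against 1.27, 1.28 and 0.96) did not pass the test. H4c4 went from 27.6, 19.1 and 28.8 to 189, 155 and 184, a log2 difference of 2.83 ± 0.07. H4c12 was also called, on 5 UMIs with neither score and 76 with both over the libraries together, and it passed the filter only through the latter. H4c14 and H4c6 did not pass the test.

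**Figure D4:**
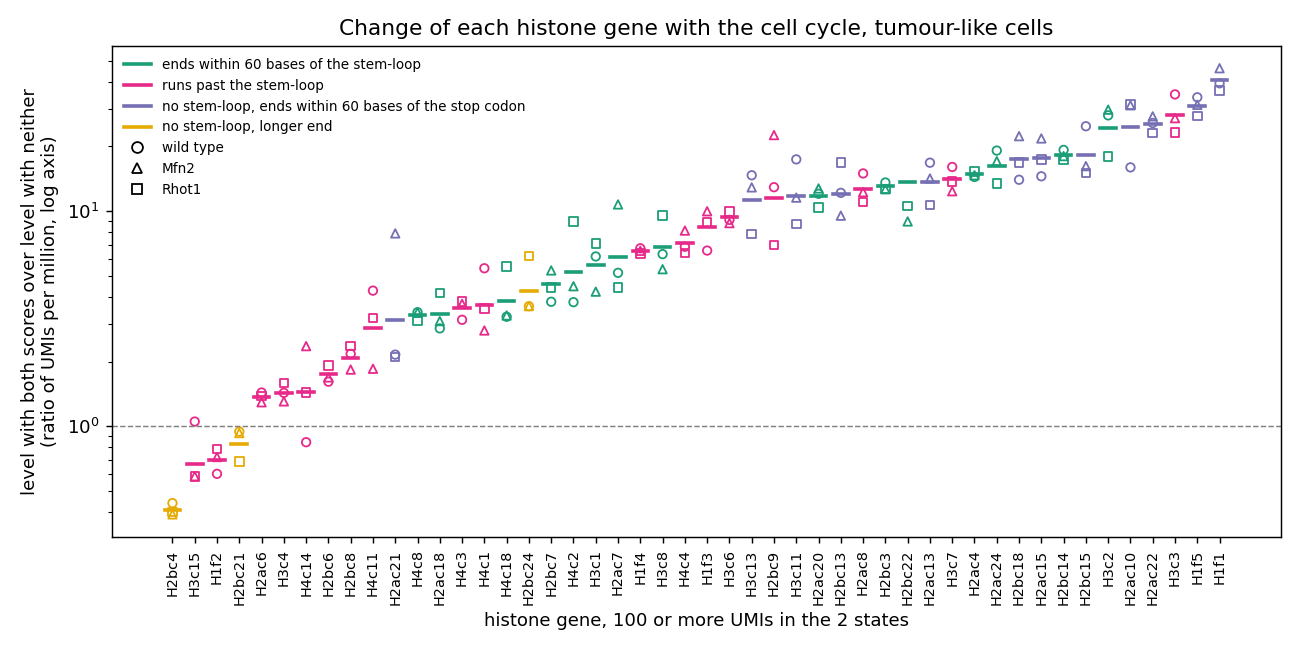
Ratio of each member's CPM in tumour-like cells with both scores over those with neither (log axis), for members with 100 or more UMIs in these states. Symbols are libraries, bars are the 3 libraries summed, colours give how the gene model ends, and H2bc4, H3c15, H1f2 and H2bc21 lie under the dashed line at 1. The wild-type point of H2bc22 is missing because that library had no UMI in cells with neither score.

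H1f2 and H2bc4 made up most of the histone message of tumour-like cells with neither score. Together they gave 53.9%, 55.7% and 52.0% of member UMIs in cells with neither score, and 4.71%, 5.54% and 5.56% in cells with both. Without them, a choice made after their values were seen, the ratio of both to neither was 12.3, 11.6 and 10.4.

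S-only cells differed little from cells with neither score. Of 38 members that passed the filter, 2 rose, 7 fell and 29 passed no threshold by edgeR's quasi-likelihood test, where 11.5% of all 13893 genes rose and 8.97% fell. The members' median log2 difference was 0.01 and that of all genes -0.01. H1f5 rose by 0.54 ± 0.08 (adjusted p = 0.00056) and H2ac24 by 0.31 ± 0.07 (adjusted p = 0.0076). H1f2 fell by 0.87 ± 0.08, H2bc4 by 0.64 ± 0.07, H4c14 by 1.00 ± 0.32, H2ac18 by 0.58 ± 0.17, H4c8 by 0.52 ± 0.15, H3c4 by 0.48 ± 0.15 and H4c4 by 0.28 ± 0.08. Of the 7 lower calls 2 were made by DESeq2, 3 without the wild-type library and 3 without the Rhot1 library. The summed ratio of S-only to neither was 0.766 (0.729 to 0.805), 0.867 (0.838 to 0.896) and 0.793 (0.766 to 0.821). Its direction rested on H1f2 and H2bc4: without them it was 1.06, 1.07 and 1.03. At equal depth, as given above, it was above 1 in the wild-type and Mfn2 libraries. The S score itself did separate these cells, since all 39 genes of its list were higher, as the rule fixes.

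G2/M-only cells lay between. Of 48 members that passed the filter 40 rose, 2 fell and 6 passed no threshold, where 22.3% of all 14181 genes rose and 22.1% fell. Some of the 48, H2bc15 among them, passed the filter only through G2/M-only cells. H3c3 rose most, by 3.51 ± 0.13 (adjusted p = 7.7e-10), followed by H2bc18 at 3.01 ± 0.15, H2bc15 at 2.99 ± 0.33 and H1f5 at 2.84 ± 0.07. H1f2 and H2bc4 fell again, by 0.46 ± 0.06 and 0.39 ± 0.07. The summed ratios to cells with neither score were 2.65, 2.00 and 2.27.

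How a GENCODE M21 gene model ends went along with how its gene varied over the states. The deposited gene list names genes otherwise than M21, such as H1f5 for Hist1h1b, so UMIs may have been counted on other models. Of the members, 22 have models that end within 60 bases of the stem-loop, 20 have models that run on past it, 17 have models that show no stem-loop and end within 60 bases of the stop codon, 4 have no stem-loop but a longer end, and H2ac14 has no annotated coding sequence. Those 17 models leave few or no bases to search, so the lack of a match describes the model and not the gene. The ratio of both to neither, over the 3 libraries summed, had a median of 17.6 (range 3.13 to 40.7) for the 12 measured members whose models end at the stop codon. It was 6.82 (3.29 to 24.4) for the 15 that end at the stem-loop and 3.60 (0.670 to 28.0) for the 18 that run past it. The 3 with a longer end and no stem-loop, H2bc4, H2bc21 and H2bc24, had ratios of 0.408, 0.831 and 4.26. Measured means 100 or more UMIs in tumour-like cells with both scores or neither, and the ranges of the first 3 groups overlap. Members with models that run past the stem-loop or have a longer end gave 50.2% and 29.7% of member UMIs in cells with neither score, and 36.8% and 2.41% in cells with both. Exceptions were plain: the H3c3 model runs 74 bases past its stem-loop and its ratio was 28.0, while H1f4, with 1153 bases past, had 6.53 and H1f2, with 840, had 0.699. An AATAAA or ATTAAA signal was found in the last 40 bases of 8 of the 20 models that run past the stem-loop, H1f2 among them. Whether the captured messages end at the modelled sites was not tested.

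The order of states was the same in macrophage- and monocyte-like cells, but not in every host class. In neutrophil-like cells of the wild-type, Mfn2 and Rhot1 libraries, S-only cells stood at 701, 889 and 964 CPM. Those with neither score stood at 747, 726 and 758, and the intervals overlap in each library. In macrophage- and monocyte-like cells combined, members summed to 524, 431 and 502 CPM in cells with neither score (wild type, Mfn2 and Rhot1) and to 369.6, 381 and 338 in S-only cells. The Mfn2 ratio of S-only to neither was 0.884 (0.683 to 1.13), so the order of these 2 states is not settled there. Cells with both scores, only 48, 23 and 42 of them, reached 3137, 4385 and 3732, and G2/M-only cells 1054, 596 and 640.2. Of 35 members that passed the filter, 28 rose in cells with both scores, 1 fell and 6 passed no threshold by edgeR's quasi-likelihood test, where 9.29% of all 11116 genes rose and 9.25% fell. Some of the 35 passed the filter only through the few cells with both scores. H2ac4 rose by 4.85 ± 0.35 (adjusted p = 9.5e-15), H3c3 by 4.50 ± 0.33, H1f5 by 4.25 ± 0.15 and H2ac24 by 4.19 ± 0.14. H2bc4 was the member that fell, by 0.75 ± 0.23 (adjusted p = 0.015), a call lost with DESeq2, with the stricter cell filter and without the Rhot1 library. H1f2 stood at 119, 109 and 112 CPM with neither score and at 123, 104 and 108 with both, and did not pass the test (log2 difference -0.16 ± 0.16). In S-only cells 0 of 22 members that passed the filter rose and 3 fell, where 3.25% of all genes rose and 5.25% fell. Those 3 were H1f2 (-1.49 ± 0.22), H2bc4 (-0.79 ± 0.24) and H1f4 (-0.77 ± 0.25), and 4 of the 22 had an unadjusted p under 0.05. DESeq2 and the fit without the Rhot1 library each called 1 of the 3.

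Levels differed between cell classes, as did the share of cycling cells. Tumour-like cells had 2116, 1609 and 1791 member CPM, and 40.3%, 34.2% and 41.5% of them had both scores. Macrophage-like cells had 743, 616 and 738, with 4.97%, 2.10% and 4.98% in that state, and monocyte-like cells 619, 505 and 578, with 1.25%, 1.09% and 1.051%. T cell-like cells had 1995, 1311 and 1467, with 15.7%, 15.1% and 17.7% in the state with both scores. Neutrophil-like cells had 965, 1263 and 1200.1 at median depths of 1080.0 to 1289 UMIs, and 24.3% of the Rhot1 value came from 1 cell. This class joins cluster 6, with 2062 cells and a median of 1142.5 UMIs, and the deeper cluster 20. The latter has 53 cells, a median of 3992 UMIs and Ngp and Camp as its leading genes. These classes differ in depth, and thinning to 3000 UMIs gave 1763, 1449 and 1607 in tumour-like and 623, 537 and 653 in macrophage-like cells. In the T cell class, where thinning left 85 of 300, 41 of 106 and 39 of 158 cells, it gave 3027, 1585 and 1795. These lie above the tumour-like values in all 3 libraries, and 44.7%, 36.6% and 51.3% of these deeper cells had both scores. The order of the T cell class and tumour-like cells thus turned with the cells kept in the wild-type library (interval 2818 to 3249). In the Mfn2 and Rhot1 libraries the T cell intervals, 1371 to 1824 and 1560 to 2055, include the tumour-like values, so the order there is not settled. Before thinning, 1 cell held 17.8% and 12.0% of the T cell member UMIs in these libraries. In neutrophil-like cells 56, 67 and 33 cells were left, with 1125, 1582 and 1121. Classes come from the same cells, so their levels are a description with no test.

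H1f2 and H2bc4 varied less between classes than the other members did. Their sum ran from 202 to 216 CPM in tumour-like cells, 211 to 223 in macrophage-like, 110.5 to 148 in monocyte-like cells, and 150.2 to 169 in those of the T cell class. The other members together ran from 1393 to 1901, 398 to 532, 394 to 471 and 1161 to 1845 in the same classes. Neutrophil-like cells, with 254 to 308, had the highest level of the pair among named classes of 50 or more cells in each library. The pair therefore gave 10.2% to 13.4% of member UMIs in tumour-like cells and 28.4% to 35.3% in macrophage-like cells.

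H4c9 and H2bc11, chosen after their values were seen, were almost absent from tumour-like cells. H4c9 stood at 0.27, 0.21 and 0.28 CPM in tumour-like cells for wild type, Mfn2 and Rhot1 (62 UMIs in all). In the macrophage-, monocyte-, neutrophil-, T cell-, NK cell- and dendritic cell-like classes together, leaving out 26 osteoclast-like cells, it stood at 21.6, 19.1 and 19.6 (648 UMIs), so the groups did not overlap in any library. The ratio of host to tumour-like was 79.6 (61.3 to 105) over the libraries together. H2bc11 had 13 UMIs in tumour-like cells (0.05 CPM) and 133 in host classes (4.15 CPM), a ratio of 77.9 (44.0 to 150.2). Among members with 100 or more UMIs in these cells the next highest ratio was that of H4c14, 1.89 (1.51 to 2.33), and the lowest was that of H1f1, 0.235 (0.202 to 0.272).

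**Figure D5:**
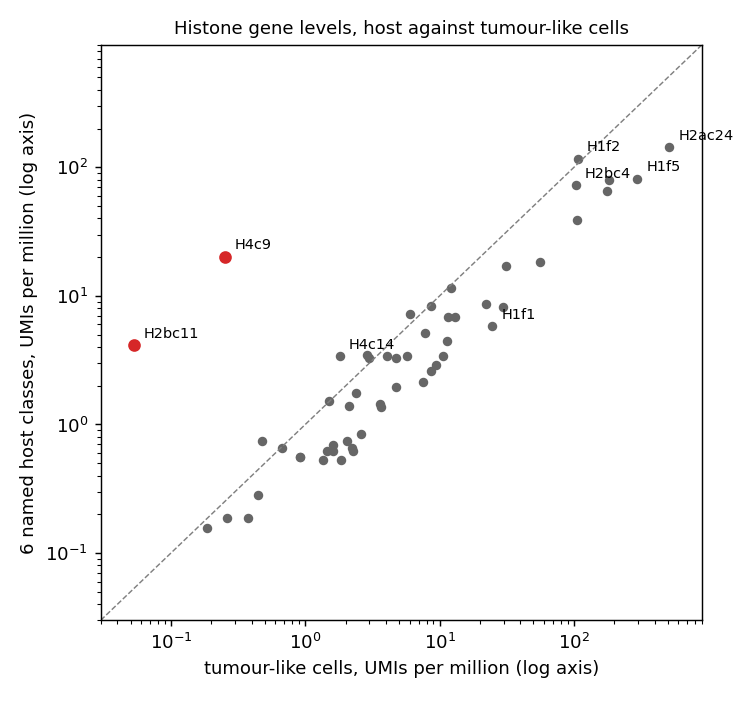
CPM in these 6 host classes together against tumour-like cells (log axes), 1 point per member, over the 3 libraries summed. H4c9 and H2bc11, in red, lie at 20.2 and 4.15 in host classes against 0.25 and 0.05 in tumour-like cells, far above the dashed line of equal levels.

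H4c9 was found in most host classes, and in macrophage- and monocyte-like cells it was found with both scores and with neither. Macrophage-like cells had 23.5, 17.4 and 16.7 CPM, monocyte-like cells 20.3, 14.3 and 20.7, and neutrophil-like cells 26.2, 35.5 and 39.0. T cell-like cells had 21.5, 1.85 and 16.6, the Mfn2 value resting on 1 UMI. The unnamed clusters that carry tumour markers had 0.37, 0.27 and 0.35, close to the tumour-like level. In macrophage- and monocyte-like cells H4c9 went from 20.997, 15.3 and 17.6 with neither score to 34.0, 27.1 and 35.02 with both, without passing the test (log2 difference 0.68 ± 0.30, adjusted p = 0.11). H2bc11 rose there from 1.75, 1.31 and 1.04 to 25.5, 31.6 and 60.03, by 4.62 ± 0.46 (adjusted p = 1.4e-10). H2bc11 passed the filter only through cells with both scores. The pair are neighbours in mm10, with H4c9 at chr13:22040636-22041362 on the minus strand and H2bc11 at chr13:22043214-22043676 on the plus strand. Their group of 5 members, H2ac12, H2bc12, H4c9, H2ac11 and H2bc11, spans chr13:22035164-22043676. It held 0.0221% of member UMIs in tumour-like cells and 3.18% in host classes. Most of its 98 and 799 UMIs in these cells are those of H4c9 and H2bc11 counted above. The group value therefore restates the pair that was picked and says little about the other members of the group. The group of 19 members at chr13:21715763-21837530, which includes H2ac24 and H1f5, held 46.7% and 31.0%.

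Genes that make, process and carry histones were also higher in cycling tumour-like cells. Of 26 genes for processing and decay of histone messages 25 passed the filter in the contrast of both against neither, and 19 rose and 2 fell, where 27% of all genes rose and 24.8% fell, with a median log2 difference of 0.48. Slbp, which binds the stem-loop, went from 58.9, 57.1 and 59.7 CPM to 129, 117 and 118, by 1.06 ± 0.05 (adjusted p = 3.2e-06), and Zfp473, a zinc-finger protein of the processing complex, rose by 2.04 ± 0.34 on under 1 CPM. Tut7, a terminal uridylyltransferase, fell by 0.23 ± 0.06, and Lsm10, a subunit of the U7 particle that guides cleavage, by 0.15 ± 0.05. Unlike most members, Slbp was also higher in S-only cells, at 101, 103 and 109 CPM (log2 difference 0.82 ± 0.05). In G2/M-only cells it stood at 68.2, 56.7 and 61.8, and the difference did not pass the test. Of the 24 processing genes tested in S-only cells 14 rose and 0 fell by edgeR, with 17 at an unadjusted p under 0.05. Of all 13893 genes 11.5% rose and 8.97% fell, and 4712 had an unadjusted p under 0.05. These included Casp8ap2, a coactivator of histone transcription, at 0.86 ± 0.06. The difference between these genes and the members was not tested.

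Histone chaperones, which hand new histones to DNA, had a like pattern. Of 18 tested 15 rose in cells with both scores and 0 fell by edgeR, with 15 at an unadjusted p under 0.05, against 27% and 24.8% of all genes. Asf1b, a chaperone of H3 and H4, went from 3.62, 5.30 and 4.09 CPM to 59.0, 54.7 and 56.2, by 3.70 ± 0.11, and Chaf1b, a subunit of the replication-coupled assembly factor, rose by 2.14 ± 0.14. Ipo4, an importin that carries histones, and Atrx, which places H3.3, did not pass the test. In S-only cells 12 of 18 rose, against 11.5% of all genes, Asf1b by 1.94 ± 0.12 and Chaf1b by 1.76 ± 0.12. Of 10 histone genes outside the replication-dependent clusters that passed the filter, 6 rose with both scores and 0 fell, against the same 27% and 24.8%. Cenpa, the centromeric H3, rose by 3.12 ± 0.11, and by 3.98 ± 0.07 in G2/M-only cells, and H2ax, the H2A variant marked at DNA breaks, by 1.79 ± 0.09. H2aj and H3f3a, one of the genes for H3.3, did not pass the test, with H3f3a at 929, 849 and 886 against 875, 797 and 815 CPM. These gene lists were chosen with earlier results of the data known.

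Promoter windows of H2A and H2B genes often held the octamer element. RefSeq start sites of GRCm38.p6 were matched by symbol for 57 of the 64 members, and promoter windows of equal length were searched on both strands. The octamer ATTTGCAT was present in 7 of 14 H2B and 6 of 17 H2A windows and in none of the 5 H1, 10 H3 and 11 H4 windows, against 1.97% of 27025 genes. H2A and H2B genes often share a divergent promoter, so some of these matches are the same site. CCAAT was present in 49 of 57 windows, with 3 of 11 among H4 genes, against 41.1% of all genes, and TATAAA in 34 of 57, against 15.7%. A match says only that the letters are present.

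Summed histone levels in tumour-like cells were lower in both deletion libraries than in the wild-type library. The ratio to wild type was 0.761 (0.755 to 0.766) for Mfn2 and 0.847 (0.841 to 0.853) for Rhot1, and with 1 library per genotype it has no replicate check and no test. The libraries draw their tumour-like cells from different clusters. Clusters 4 and 1 held 31.7% and 26.7% of them in the wild-type library, clusters 0 and 2 held 33.4% and 22.3% in the Mfn2 library, and clusters 2, 1 and 0 held 23.8%, 23.5% and 21.005% in the Rhot1 library. Within each of the 7 tumour-like clusters the ratio was under 1, from 0.423 to 0.886 for Mfn2 and from 0.593 to 0.881 for Rhot1. The value of 0.423 is that of cluster 9, a shallow cluster with a median of 2623 UMIs per cell. Medians were 12530 to 17688 in the other tumour-like clusters, among which the lowest Mfn2 ratio was 0.574, in cluster 14. Cluster 4 is led by Sema3a, Fgfr1 and Mmp3 with no tumour marker among its 10 leading genes, and cluster 14 by the interferon-response genes Apol9a, Ifi44 and Oasl1. At Leiden resolution 0.5 the Rhot1 ratio turned to 1.03, and it was 0.954 once the unnamed tumour-marker clusters were included.

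The ratios lay farthest from 1 in cells with both scores or a G2/M score only. In cells with neither score the ratios were 0.948 (0.924 to 0.972) and 0.961 (0.936 to 0.986) for Mfn2 and Rhot1, and in S-only cells 1.07 and 0.994. In cells with both scores they were 0.866 and 0.856, and in G2/M-only cells 0.715 and 0.821. Of the 49 members with 100 or more UMIs in tumour-like cells, 10 were lower by 1.5-fold or more in the Mfn2 library and 0 higher, where 4.18% of all 14242 genes with that many UMIs were lower and 4.51% higher. The median log2 ratio was -0.41 for these members and 0.02 for all genes. H1f1 stood at 29.4 CPM in the wild-type, 17.3 in the Mfn2 and 28.1 in the Rhot1 library, so it was lowest in the Mfn2 library. H2ac8 stood at 235, 145 and 161, and H3c3 at 35.8, 22.6 and 31.5. The remaining 7 were H2bc15, H3c2, H2ac13, H3c7, H2bc9, H2bc3 and H3c11. H1f2 (111, 109 and 102) and H2bc4 (104, 107 and 100.5) differed by little. Once the unnamed tumour-marker clusters were included, 1 member was lower by that fold.

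For Rhot1 the same count was 1 lower, H2ac7 with 1.68 against 1.11 CPM, and 1 higher, H2bc21 with 2.34 against 3.66, where 2.82% of genes were lower and 4.33% higher. H2ac24 stood at 644, 486 and 442, with a Rhot1 ratio of 0.686 (0.677 to 0.695), while H1f5 stood at 323, 236 and 331, with a Rhot1 ratio of 1.03 (1.01 to 1.04). Without H2ac24 the summed Rhot1 ratio was 0.917. Both ratios share the wild-type library.

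In host classes the direction varied. The ratios were 0.829 (0.787 to 0.874) and 0.993 (0.946 to 1.042) in macrophage-like cells, 0.657 and 0.735 for the T cell class, and 1.31 and 1.24 in neutrophil-like cells. The last of these rests on a library in which 1 cell held 24.3% of the member UMIs, and after thinning that library (1121) was no higher than wild type (1125). In macrophage- and monocyte-like cells 5 of 19 members were lower by 1.5-fold in the Mfn2 library and 0 higher, where 2.54% of 9792 genes were lower and 2.68% higher. They were H3c3, H1f1, H2ac8, H3c4 and H2bc6. None of the 19 passed that fold in the Rhot1 library, where 1.33% of genes were lower and 2.38% higher. Cells with both scores were 2.10% of macrophage-like cells in the Mfn2 library against 4.97% in the wild-type library, and after thinning 2.03% against 5.21%.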

How the data were processed

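Values are raw UMI counts, deposited as 1 matrix per library. Per the file headers the software was Cell Ranger 7.0.0, and the submitters' processing notes name mm10. Neither the annotation release nor the intron setting is stated. Barcodes needed 300 genes and no more than 15% mitochondrial UMIs, and doublets marked by Scrublet in each library were removed. With scanpy 1.11.5, 2000 variable genes (members, other histone and cell cycle genes left out), 30 components and 15 neighbours were clustered with leidenalg 0.10.2 at resolution 1. Clusters were named from marker lists by a score set after the clusters had been seen. Members and lists were chosen with earlier results of these data known. UMIs were summed per library, class and state and tested with edgeR 4.0.16 (quasi-likelihood, TMM, filterByExpr, R 4.3.3), with DESeq2 1.42.0 as an alternative. On simulated data with 13845 genes, edgeR recovered 92.5% of 1.5-fold changes between S-only and neither cells, with 11 false calls. Changes were planted only in genes above a minimum level, and all genes were given the same dispersion. The rate therefore does not cover members of few UMIs. Named members were the 25 with most UMIs, those called in tumour-like states and the extremes of each family, and the 2 highest and 2 lowest of each other list. Stem-loops and coordinates come from GENCODE M21 matched by gene ID, and promoters from RefSeq. Alternatives changed the cell filter, doublets, clustering resolution, score threshold, depth, members summed and libraries.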

Additional observations from a re-analysis of the deposited data

How the results depend on the processing

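No paired analysis was possible because the labels give no replicate numbers and each genotype has 1 library. This concerns the comparison of genotypes, since the state contrasts were fitted within libraries. Values below are in the order wild type, Mfn2 and Rhot1. The tumour-like level moved to 1707, 1534 and 1764 at Leiden resolution 0.5, to 2212, 1585 and 1822 at resolution 2, to 1986 and 1553 (wild type and Mfn2) with the stricter cell filter, to 2152, 1649.5 and 1821 with doublets kept, and to 1763, 1449 and 1607 after thinning. The macrophage-like level moved to 623, 537 and 653 after thinning, to 586 and 709.6 (Mfn2 and Rhot1) at resolution 2, and to 787 (Rhot1) with doublets kept. The S-only ratio was 0.696, 0.816 and 0.754 without H2ac24, 1.06, 1.07 and 1.03 without H1f2 and H2bc4, and 1.04, 1.02 and 0.951 after thinning. It was 0.835 (Mfn2) at a score threshold of 0.05, 0.832 (Rhot1) with the stricter filter and 0.822 (Rhot1) with doublets kept. The ratio of both to neither was 5.15, 5.07 and 5.19 with unnamed tumour-marker clusters added, 6.48, 5.97 and 5.90 at the threshold of 0.05, 4.44, 4.03 and 4.34 without H2ac24, 12.3, 11.6 and 10.4 without H1f2 and H2bc4, 5.34 and 5.18 (wild type and Mfn2) with the stricter filter, 5.54 and 5.47 (Mfn2 and Rhot1) with doublets kept, and 5.67, 5.01 and 4.82 after thinning. The Mfn2 ratio to wild type was 0.838 with clusters added, 0.733 without H1f2 and H2bc4, 0.851 with states weighted alike, 0.899 and 0.717 at resolutions 0.5 and 2, 0.782 with the stricter filter, 0.767 with doublets kept and 0.822 after thinning. The Rhot1 ratio was 0.954, 0.836 and 0.867 under the first 3 of these, 1.03 and 0.824 at the 2 resolutions, 0.902 with the stricter filter, 0.912 after thinning and 0.917 without H2ac24. Members past 1.5-fold lower numbered 1 (Mfn2) and 0 (Rhot1) with clusters added, and for Rhot1 0 with the stricter filter and 2 with doublets kept. Lower calls in tumour-like S-only cells numbered 2 with DESeq2 and 3 to 6 without 1 library, and those with both scores 2 to 4 without 1 library. In macrophage- and monocyte-like cells they numbered 1 with DESeq2 and 1 to 3 without 1 library (S-only), and 0 with DESeq2, 0 with the stricter filter and 0 to 1 without 1 library (both scores). The cause of these shifts was not tested. The fits of both against neither, the ratios of both to neither and the sums without H1f2 and H2bc4 were chosen after seeing the data. All 46 calls of both against neither in tumour-like cells kept their direction in every setting run, and H2ac6 alone lost its call, with the stricter filter and with clusters added. In macrophage- and monocyte-like S-only cells the threshold of 0.05 could be run on 2 libraries only. Depth limits members of few UMIs: ratios by gene model and fold counts between genotypes used members with 100 or more.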

Other observations

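Clusters that stayed unnamed also carried histone message. Cluster 3, which has tumour markers but is led by Adm, Mmp3 and Lum, had 1092, 1033 and 1024 member CPM for wild type, Mfn2 and Rhot1. In the unnamed clusters with tumour markers the linker histone gene H1f1 stood at 5.34, 4.93 and 8.51 CPM and H2bc4 at 181, 141 and 138. Cluster 10, led by Arg1 and Mmp12 among others, had 709, 574 and 527. Cluster 11, with haemoglobin genes and tumour markers, had 699.5, 675 and 1386, and cluster 18, with B cell genes, had 2836 in 44 wild-type cells, 695 in 15 Mfn2 cells and 1919 in 17 Rhot1 cells. In cluster 18 a single cell held 39.96% of the wild-type and 80.0% of the Rhot1 member UMIs.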
